A study of Arabidopsis thaliana with 6 samples.

Results

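The 29 Aux/IAA genes and 6 GH3 genes of the acyl acid amido synthetase family that conjugate auxin were followed in RNA sequencing counts from whole Arabidopsis thaliana seedlings aged 12 days. They were taken by gene identifier, and all 35 names matched a symbol or synonym of their locus in RefSeq. Of these 35 genes, among 26800 gene identifiers in the table, 34 had a row of counts, and IAA15 was not analysed here. The 33 with enough counts were tested, while IAA31 was below the filter on low counts, with 21, 7 and 7 counts in the libraries labelled vih1vih2 and 19, 0 and 5 in those labelled wild type. The study set 3 libraries labelled vih1vih2, named for a double mutant of the kinase genes VIH1 and VIH2 that make the inositol pyrophosphate InsP8, against 3 labelled wild type (the Col-0 accession). All seedlings grew under one regime, at a single temperature and light level on agar medium with sucrose. The labels state neither the alleles of the mutant nor whether replicate libraries were grown as separate cultures, so p-values measure only how far these samples spread, which may be a technical spread.

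Auxin acts largely by removing repressors. Aux/IAA proteins bind ARF transcription factors and bring TOPLESS co-repressors to auxin-regulated genes, and auxin glues the Aux/IAA degron to the F-box proteins TIR1 and AFB, after which the repressor is destroyed. Many Aux/IAA genes, and several GH3 genes, are themselves switched on by auxin, which makes them feedback regulators as well as widely used reporters of the response. The GH3 enzymes followed here join indole-3-acetic acid (IAA) to amino acids, which stores or inactivates it, and amidohydrolases such as ILR1 and IAR3 release it again from some conjugates.

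Total counts were 47894376 to 52902600 in the libraries labelled vih1vih2 and 42697387 to 64410871 in those labelled wild type. Across the 22818 genes tested, 40.9% were called by edgeR's quasi-likelihood test at a Benjamini-Hochberg adjusted p under 0.05, with 21.4% higher and 19.4% lower in the libraries labelled vih1vih2. "Rose" and "fell" are used only of genes called in this way. Levels are given as CPM (the share of a library's counts, per 1e6, scaled by the trimmed mean of M-values), and every log2 fold change sets the 3 libraries labelled vih1vih2 over the 3 labelled wild type and is followed by ± its standard error. The genes named in the mutant's label go against it. VIH2 had 33783, 35310 and 38660 counts in the libraries labelled vih1vih2 and 2759, 2783 and 2310 in those labelled wild type, and VIH1 had 1737, 1524 and 1820 in the libraries labelled vih1vih2 and 325, 361 and 246 in those labelled wild type. Their log2 fold changes were 3.64 ± 0.14 and 2.31 ± 0.16, with adjusted p of 3.74e-05 and 0.000289 by edgeR with Benjamini-Hochberg adjustment. Whether these transcripts are whole cannot be read from counts per gene, and every direction below follows labels that the targeted genes do not bear out. With the labels exchanged, each log2 fold change would keep its size and turn its sign.

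In the libraries labelled vih1vih2 most of the Aux/IAA genes called were lower and most of the GH3 genes called were higher. Of the 27 Aux/IAA genes tested, 14 fell, 1 rose and 12 were not called, so 51.9% fell where 19.4% of all genes did. Their median log2 fold change was -0.71, against -0.0020 over all genes tested. That median is the value of IAA34, which shares all its counts with an overlapping gene and is uncertain. The Aux/IAA count that fell and the sum below include IAA34. Of the 6 GH3 genes, 4 rose, 1 fell and 1 was not called, with a median of 0.89, beside the 21.4% of all genes that rose. The libraries of the groups did not overlap for 18 of the Aux/IAA genes and 5 of the GH3 genes, beside 56.4% of all genes tested. Summed over the family, Aux/IAA transcripts came to 786 ± 48.3 CPM in the libraries labelled vih1vih2 and 1129 ± 76.1 CPM in those labelled wild type (SD, n = 3 each), a ratio of 0.697. The GH3 sum was 499 ± 45.7 CPM in the libraries labelled vih1vih2 and 231 ± 33.0 CPM in those labelled wild type, a ratio of 2.16. In RNA from whole seedlings, fewer cells of a type and less RNA per cell cannot be told apart.

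**Figure D1:**
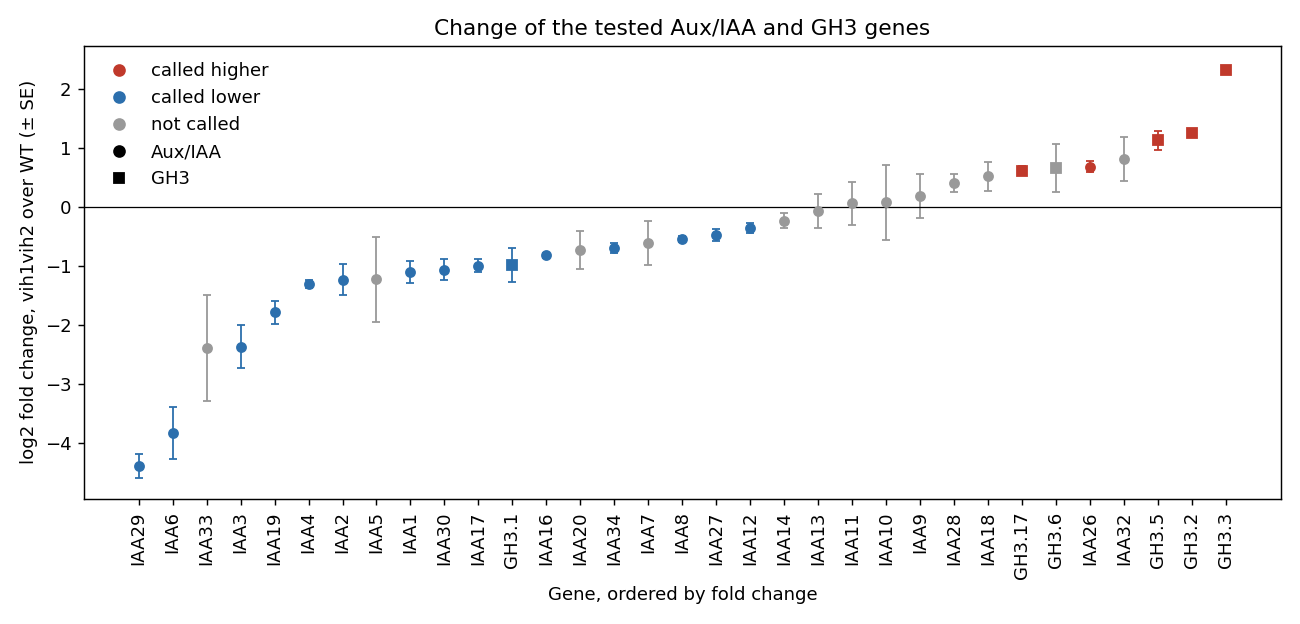
Fold changes of the 33 tested Aux/IAA (circles) and GH3 (squares) genes, as log2 ratios (libraries labelled vih1vih2 over libraries labelled wild type), with bars for the standard error. Red marks genes called higher, blue genes called lower and grey genes not called by edgeR; IAA29 lies at -4.40 on the left and GH3.3 at 2.31 on the right.

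The degron that TIR1 and AFB bind is the feature that defines a canonical Aux/IAA protein. The codons of its core, written as GGNTGGCCNCCN for glycine, tryptophan and a pair of prolines, were found in frame in 23 of the 29 Aux/IAA genes and in 34 of 27444 coding genes of RefSeq TAIR10.1 (0.124%). They were in none of the 6 GH3 genes, nor in IAA20, IAA30, IAA31, IAA32, IAA33 or IAA34. The stretches of coding sequence around the core are shown for the 6 Aux/IAA genes that carry it and that either had the most negative fold changes or the highest level per length in the libraries labelled wild type, and for the gene that rose, with the core in capitals. None of them spans an intron.
IAA29 (chr4:15583942-15583980, plus strand): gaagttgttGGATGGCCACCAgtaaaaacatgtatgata
IAA6 (chr1:19673314-19673352, minus strand): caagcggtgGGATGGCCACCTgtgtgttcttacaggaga
IAA3 (chr1:1129010-1129048, minus strand): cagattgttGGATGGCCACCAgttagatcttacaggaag
IAA19 (chr3:5264307-5264345, plus strand): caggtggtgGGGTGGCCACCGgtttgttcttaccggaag
IAA4 (chr5:17550740-17550778, plus strand): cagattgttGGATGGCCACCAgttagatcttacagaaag
IAA16 (chr3:1289721-1289759, minus strand): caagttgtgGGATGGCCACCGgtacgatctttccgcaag
IAA26 (chr3:5613653-5613691, minus strand): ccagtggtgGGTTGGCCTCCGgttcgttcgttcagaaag
Among the genes with the core codons, 12 of 22 tested fell (54.5%) and 1 rose (4.55%), with a median log2 fold change of -0.59. Among those without, 2 of 5 tested fell (40%) and none rose, with a median of -0.73. Of all genes tested, 19.4% fell and 21.4% rose, and whether genes with and without the core differ was not tested. The 2 that fell without the core are IAA30 and IAA34, and IAA34 shares all its counts with an overlapping gene.

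IAA29 (AT4G32280), a canonical Aux/IAA gene known as a target of the PIF growth factors, had the most negative log2 fold change of the members. It stood at 1.28, 0.886 and 1.37 CPM in the libraries labelled vih1vih2, against 25.2, 26.5 and 23.1 CPM in those labelled wild type. The groups lay far apart and each was tight. The log2 fold change was -4.40 ± 0.20, or 21.1-fold lower, with an adjusted p of 7.03e-05 by edgeR with Benjamini-Hochberg adjustment. IAA6 (AT1G52830, also called SHY1), which acts in hypocotyl growth and in adventitious rooting, had 0.126, 0.295 and 0.0937 CPM in the libraries labelled vih1vih2, against 2.75, 2.13 and 2.52 CPM in those labelled wild type. It stayed close to 0 in all 3 libraries labelled vih1vih2, at a log2 fold change of -3.84 ± 0.44 (adjusted p of 0.00157 by edgeR with Benjamini-Hochberg adjustment).

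IAA19 (AT3G15540, MSG2), a repressor of ARF7 in hypocotyl bending, is the closest relative of IAA6. It had 4.35, 6.95 and 5.77 CPM in the libraries labelled vih1vih2 and 19.3, 21.2 and 18.6 CPM in those labelled wild type, with no overlap. The log2 fold change was -1.79 ± 0.19 (adjusted p of 0.00125, edgeR with Benjamini-Hochberg adjustment). IAA3 (AT1G04240, SHY2), which restrains auxin output in the root meristem transition zone, had 3.63, 7.15 and 4.05 CPM in the libraries labelled vih1vih2 and 29.4, 17.5 and 29.9 CPM in those labelled wild type. Library 2 labelled wild type was the lowest of its group, yet above all 3 labelled vih1vih2. Its log2 fold change was -2.37 ± 0.36 (adjusted p of 0.00449, edgeR with Benjamini-Hochberg adjustment). IAA3 overlaps AT1G04230 on the opposite strand by 640 bases; the strand setting of the counting is not given, and that neighbour had 8.90 CPM in the libraries labelled vih1vih2 and 7.71 CPM in those labelled wild type and was not called.

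The close pairs IAA1 with IAA2 and IAA3 with IAA4, all short-lived and auxin-induced, fell as well. IAA4 (AT5G43700) stood at 29.4, 31.3 and 28.5 CPM in the libraries labelled vih1vih2, against 73.0, 75.9 and 72.0 CPM in those labelled wild type. IAA2 (AT3G23030) stood at 47.3, 47.9 and 28.7 CPM in the libraries labelled vih1vih2, against 113, 105 and 74.9 CPM in those labelled wild type. Library 3 was the lowest in both groups for IAA2, and neither gene's groups overlapped. The log2 fold changes were -1.31 ± 0.06 for IAA4 and -1.24 ± 0.26 for IAA2, with adjusted p of 8.37e-05 and 0.0141 by edgeR with Benjamini-Hochberg adjustment. IAA1 (AT4G14560, AXR5) was at 3.02, 4.79 and 4.05 CPM in the libraries labelled vih1vih2, all below the 8.10, 9.02 and 8.45 CPM of those labelled wild type, a log2 fold change of -1.11 ± 0.19.

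IAA16 and IAA17 belong with IAA7 and IAA14 to a clade of Aux/IAA genes in which stabilising mutations stunt the plant. IAA16 (AT3G04730) gave the highest mean level per length of the Aux/IAA genes in the libraries labelled wild type, and came next to IAA9 in those labelled vih1vih2. It had 143, 153 and 149.6 CPM in the libraries labelled vih1vih2 and 265, 258 and 266 CPM in those labelled wild type, so every library labelled vih1vih2 was far below every one labelled wild type. Its log2 fold change was -0.82 ± 0.05 (adjusted p of 0.000126, edgeR with Benjamini-Hochberg adjustment). IAA17 (AT1G04250, AXR3) had 18.2, 18 and 19.96 CPM in the libraries labelled vih1vih2 and 32.7, 39.1 and 40.7 CPM in those labelled wild type, without overlap, at a log2 fold change of -1.0 ± 0.11. IAA7 (AT3G23050, AXR2) was not called, at 37.0, 97.0 and 47.5 CPM in the libraries labelled vih1vih2 and 88.7, 101 and 90.03 CPM in those labelled wild type. Library 2 labelled vih1vih2 alone reached the range of those labelled wild type, and the log2 fold change of -0.62 ± 0.37 (adjusted p of 0.243) was -1.14 without it (adjusted p of 0.0063, edgeR with Benjamini-Hochberg adjustment). IAA14 (SLR), the repressor of lateral root initiation, averaged 8.86 ± 0.65 CPM in the libraries labelled vih1vih2 and 10.4 ± 1.4 CPM in those labelled wild type and was not called.

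Of the other genes that fell, IAA8 and IAA27 encode long Aux/IAA proteins, whose genes are among the less auxin-responsive of the family. IAA8 was at 93.1, 93.1 and 91.7 CPM in the libraries labelled vih1vih2 and 141, 132 and 134 CPM in those labelled wild type, a small but even difference of -0.55 ± 0.05 on the log2 scale (adjusted p of 0.000632, edgeR with Benjamini-Hochberg adjustment). IAA27 (PAP2) averaged 18.4 ± 1.2 CPM in the libraries labelled vih1vih2 and 25.7 ± 2.51 CPM in those labelled wild type, and IAA12 (BODENLOS), which represses ARF5 in the embryo, averaged 12.9 ± 0.61 CPM in the libraries labelled vih1vih2 and 16.6 ± 1.13 CPM in those labelled wild type. Their log2 fold changes were -0.48 ± 0.10 and -0.36 ± 0.09, with adjusted p of 0.015 and 0.0256 by edgeR with Benjamini-Hochberg adjustment. IAA12 lost its call without library 1 labelled wild type (-0.30) or without library 1 or 2 labelled vih1vih2 (-0.33 and -0.35), and IAA27 without library 1 or 2 labelled vih1vih2 (-0.45 and -0.46).

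Members without the core codons were low in level, apart from IAA34. IAA30, a non-canonical gene, had 1.12, 0.985 and 1.11 CPM in the libraries labelled vih1vih2 and 2.45, 1.85 and 2.43 CPM in those labelled wild type, without overlap, at a log2 fold change of -1.07 ± 0.17 (adjusted p of 0.00575, edgeR with Benjamini-Hochberg adjustment). IAA34 fell as well, at a log2 fold change of -0.71 ± 0.09. All 6 of its counts are shared with the row of AT1G15060, which overlaps it on the same strand by 156 bases, so its value is uncertain. IAA20, IAA32 and IAA33 averaged under 0.8 CPM in both groups and were not called, though the groups of IAA32, higher in the libraries labelled vih1vih2, and of IAA33, lower in them, did not overlap. IAA33 came nearest, at -2.40 ± 0.91 (adjusted p of 0.0879), and was called without library 2 labelled vih1vih2, which held none of its reads, at -1.83 (adjusted p of 0.0356, edgeR with Benjamini-Hochberg adjustment).

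IAA26 (AT3G16500, PAP1), a phytochrome-associated protein that the replicase of tobacco mosaic virus binds, was the 1 Aux/IAA gene that rose. It had 56.3, 64.8 and 55.0 CPM in the libraries labelled vih1vih2 and 36.4, 38.7 and 35.1 CPM in those labelled wild type. All 3 libraries labelled vih1vih2 were above all 3 labelled wild type, and the log2 fold change was 0.68 ± 0.09 (adjusted p of 0.00252, edgeR with Benjamini-Hochberg adjustment). IAA28, a repressor of lateral root founder cells, and IAA18, known from embryonic patterning, lay on the same side of 0 at 0.40 ± 0.15 and 0.52 ± 0.24 but were not called, with adjusted p of 0.0904 and 0.154. IAA28 had 26.7, 20.1 and 20.2 CPM in the libraries labelled vih1vih2 and 18, 15.1 and 17.8 CPM in those labelled wild type, without overlap, while the groups of IAA18 overlapped.

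The remaining genes not called, IAA5, IAA9, IAA10, IAA11 and IAA13, had groups that overlapped. IAA9, whose tomato namesake holds back fruit set and shapes the leaf, was at 182, 176 and 181 CPM in the libraries labelled vih1vih2 and 201, 76.5 and 198 CPM in those labelled wild type. Library 2 labelled wild type alone was low, and the log2 fold change of 0.18 ± 0.37 turned to -0.16 without it (adjusted p of 0.0579, edgeR with Benjamini-Hochberg adjustment). IAA10, IAA11 and IAA13 had log2 fold changes of 0.07, 0.06 and -0.07. With 1 library left out these ran from -0.28 to 0.54, from -0.27 to 0.28 and from -0.44 to 0.09, so they show no direction. IAA10 and IAA13 overlap genes on the opposite strand by 619 and 1176 bases, as does IAA32 by 826 bases. IAA5 stayed below 0.8 CPM in every library.

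**Figure D2:**
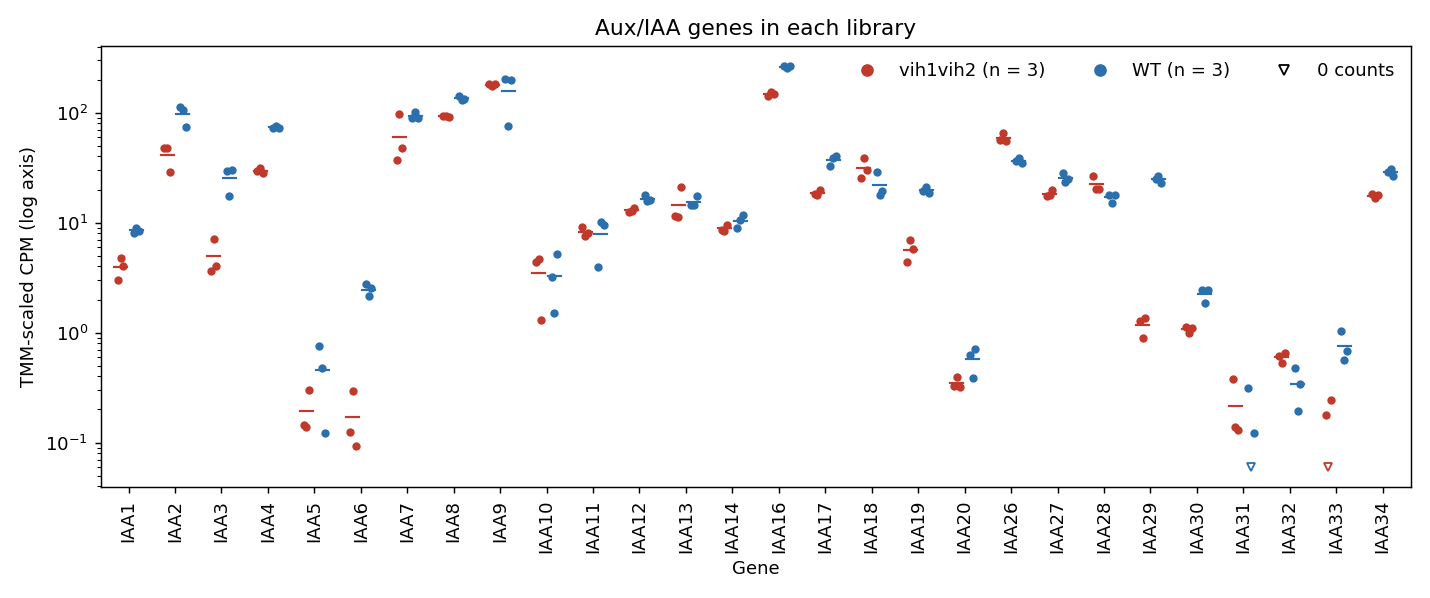
CPM (log axis) of the Aux/IAA genes in each library, with libraries labelled vih1vih2 in red to the left and libraries labelled wild type in blue to the right of each gene, lines at the group means and open triangles for 0 counts. No mean line is drawn for a group with a library at 0 counts. IAA29 and IAA6 show the widest separation, IAA26 is the called gene with the red points on top, and single libraries stand apart for IAA7 (97.0 CPM, labelled vih1vih2) and IAA9 (76.5 CPM, labelled wild type).

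Levels were set in order per kilobase of exon, as the mean of 3 libraries, with the spread as given above. IAA9 led in the libraries labelled vih1vih2 at 84.1 CPM per kilobase, followed by IAA16 at 73.3, IAA8 at 45.0, IAA7 at 31.7 and IAA2 at 30.4. In the libraries labelled wild type IAA16 led at 129.8 CPM per kilobase, followed by IAA9 at 74.1, IAA2 at 71.9, IAA8 at 65.9 and IAA4 at 54.3. The mean of IAA9 in the libraries labelled wild type includes its low library 2. IAA29 ranked 22 among 28 Aux/IAA genes in the libraries labelled vih1vih2, at 0.917 CPM per kilobase, and 10 in those labelled wild type, at 19.4.

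**Figure D3:**
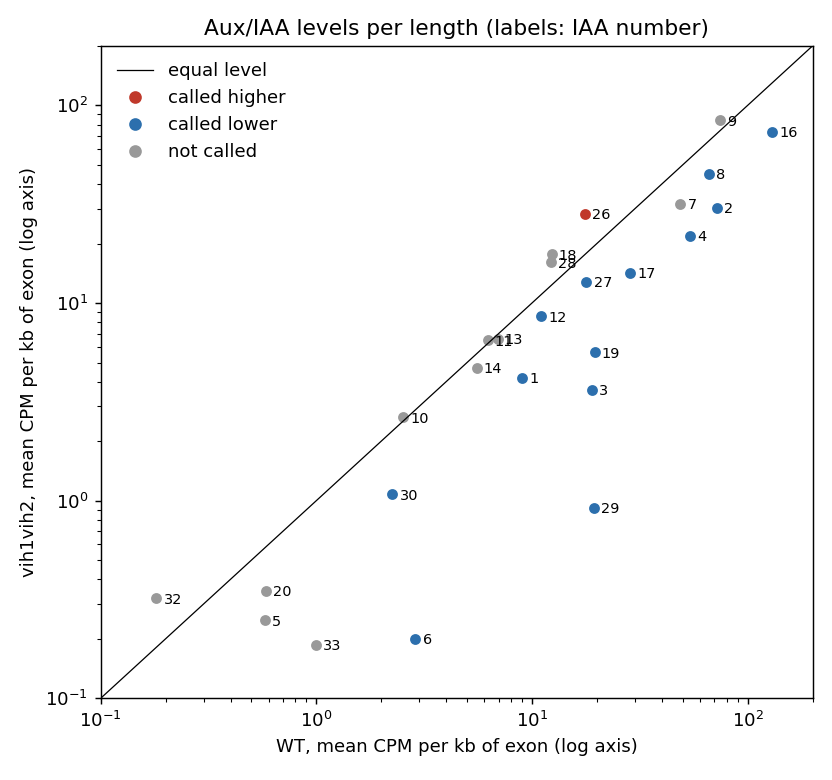
Mean CPM per kilobase of exon (log axes) of the Aux/IAA genes, labelled by number, in the libraries labelled vih1vih2 (vertical axis) against those labelled wild type (horizontal axis), with a line for equal levels; red genes were called higher, blue lower and grey not called. IAA29 and IAA6 lie furthest below the line and IAA26 is the called gene above it; IAA34 and IAA31 are not drawn.

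Of the Aux/IAA genes, 3 pairs lie next to each other in the genome within 12510 bases, which gives a view of genes that share a neighbourhood. IAA3 and IAA17, 6388 bases apart on chromosome 1, both fell. In the other two pairs the partners had different calls: IAA2 fell and IAA7, 12510 bases away on chromosome 3, was not called, and IAA1 fell while IAA14, 10732 bases away on chromosome 4, was not called. The difference between partners was not tested.

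GH3.3 had the most positive log2 fold change of the members. GH3.3 (AT2G23170, on the minus strand of chromosome 2 from 9863855 to 9866562 in TAIR10.1), which acts with GH3.5 and GH3.6 in adventitious rooting, had 121, 124 and 127 CPM in the libraries labelled vih1vih2 and 23.8, 25.9 and 24.9 CPM in those labelled wild type. Both groups were tight and far apart, and differed by 2.31 ± 0.06 on the log2 scale, or 4.98-fold (adjusted p of 1.19e-05, edgeR with Benjamini-Hochberg adjustment). GH3.2 (AT4G37390, YDK1) had 39.6, 42.7 and 41.5 CPM in the libraries labelled vih1vih2 and 17.4, 16.7 and 18 CPM in those labelled wild type. It rose by 1.25 ± 0.07 on the log2 scale (adjusted p of 0.000115, edgeR with Benjamini-Hochberg adjustment), again with no overlap. GH3.5 (AT4G27260, WES1), which accepts both IAA and salicylic acid, had 149, 179 and 117 CPM in the libraries labelled vih1vih2 and 69.8, 64.4 and 69.6 CPM in those labelled wild type. The libraries labelled vih1vih2 spread more widely for this gene but all lay above those labelled wild type, at a log2 fold change of 1.12 ± 0.16 (adjusted p of 0.00369, edgeR with Benjamini-Hochberg adjustment).

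GH3.17 (AT1G28130, VAS2), which joins IAA to glutamate, had 71.3, 65.5 and 66.5 CPM in the libraries labelled vih1vih2 and 48.5, 42.2 and 42.8 CPM in those labelled wild type. This rise, at 0.61 ± 0.08 on the log2 scale, was the smallest of the 4 called (adjusted p of 0.00272, edgeR with Benjamini-Hochberg adjustment). GH3.6 (AT5G54510, DFL1) had 77.2, 137 and 138 CPM in the libraries labelled vih1vih2 and 57.0, 117 and 49.9 CPM in those labelled wild type. Library 2 labelled wild type was high and library 1 labelled vih1vih2 low, the groups overlapped, and GH3.6 was not called, at 0.65 ± 0.41 (adjusted p of 0.265). Without library 2 labelled wild type it was called at 1.13 (adjusted p of 0.0498, edgeR with Benjamini-Hochberg adjustment). GH3.1 (AT2G14960), with the lowest level of the 6, had 0.845, 0.650 and 0.900 CPM in the libraries labelled vih1vih2 and 1.47, 2.13 and 1.15 CPM in those labelled wild type. It fell by 0.99 ± 0.29 on the log2 scale (adjusted p of 0.0428, edgeR with Benjamini-Hochberg adjustment). That call was lost without library 1 (-1.04) or 2 (-0.72) labelled wild type and without library 1 (-1.03), 2 (-0.86) or 3 (-1.08) labelled vih1vih2.

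**Figure D4:**
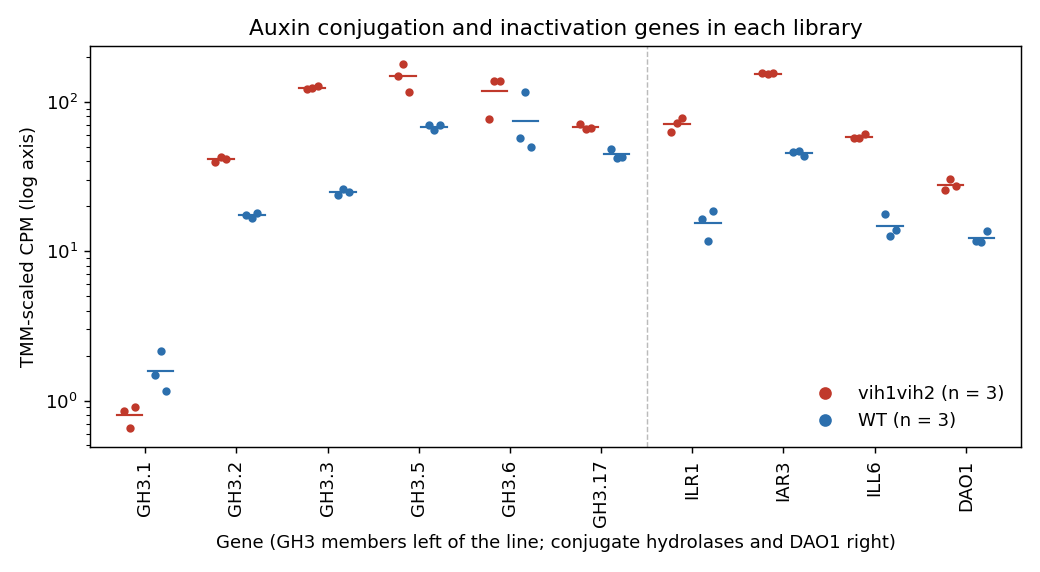
CPM (log axis) in each library of the 6 GH3 genes, left of the dashed line, and of the conjugate hydrolases ILR1, IAR3 and ILL6 with the IAA oxidase DAO1, right of it; libraries labelled vih1vih2 are red and those labelled wild type blue, with lines at the means. GH3.2, GH3.3, GH3.5 and GH3.17 and all 4 genes on the right have every red point above every blue one, GH3.6 overlaps and GH3.1 has every red point below every blue one.

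Per kilobase of exon, GH3.3 stood next to the top of the 6 GH3 genes in the libraries labelled vih1vih2, at 58.5 CPM per kilobase, and at 11.8 in those labelled wild type, behind GH3.5, GH3.6 and GH3.17. GH3.5 led in the libraries labelled vih1vih2 at 62.8 CPM per kilobase, against 28.8 in those labelled wild type, and GH3.6 was at 50.7 in the libraries labelled vih1vih2 and 32.2 in those labelled wild type, a mean that includes its high library 2. GH3.1 came last in both groups, at 0.356 CPM per kilobase in the libraries labelled vih1vih2 and 0.707 in those labelled wild type.

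The 250 bases before the RefSeq start of each gene were searched on both strands for TGTCTC, the auxin response element that ARF factors bind. It was in 12 of the 35 windows (34.3%), 9 of 29 Aux/IAA and 3 of 6 GH3, beside 10.95% of 27444 coding genes. The windows of IAA32 and IAA34, which carry it, overlap a neighbouring gene, as do those of IAA9 and IAA10, which lack it. Those 3 GH3 genes are GH3.2, GH3.3 and GH3.5, the ones with the largest fitted increases. Windows are shown for them and for the 3 Aux/IAA genes IAA29, IAA6 and IAA19, with the motifs found in capitals (RefSeq TAIR10.1, 5′ to 3′ on the gene's strand). IAA3 fell further than IAA19 but is not shown, and its window held none of the motifs marked here.
GH3.3 (chr2:9866563-9866812, minus strand): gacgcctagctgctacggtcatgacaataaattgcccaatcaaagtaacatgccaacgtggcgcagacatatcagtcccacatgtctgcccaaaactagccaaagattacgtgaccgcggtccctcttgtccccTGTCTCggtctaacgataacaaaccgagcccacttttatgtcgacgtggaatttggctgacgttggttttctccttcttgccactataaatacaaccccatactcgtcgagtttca
GH3.2 (chr4:17579368-17579617, plus strand): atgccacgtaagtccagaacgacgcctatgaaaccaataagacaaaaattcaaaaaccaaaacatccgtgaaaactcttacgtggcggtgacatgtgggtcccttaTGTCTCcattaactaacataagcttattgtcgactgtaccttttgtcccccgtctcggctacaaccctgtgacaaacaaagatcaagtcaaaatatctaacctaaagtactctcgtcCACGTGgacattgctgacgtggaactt
GH3.5 (chr4:13653329-13653578, plus strand): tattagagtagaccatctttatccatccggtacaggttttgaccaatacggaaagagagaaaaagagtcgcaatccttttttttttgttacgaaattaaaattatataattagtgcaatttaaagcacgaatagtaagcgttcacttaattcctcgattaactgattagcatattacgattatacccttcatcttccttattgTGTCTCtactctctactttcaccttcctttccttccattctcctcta
IAA29 (chr4:15583082-15583331, plus strand): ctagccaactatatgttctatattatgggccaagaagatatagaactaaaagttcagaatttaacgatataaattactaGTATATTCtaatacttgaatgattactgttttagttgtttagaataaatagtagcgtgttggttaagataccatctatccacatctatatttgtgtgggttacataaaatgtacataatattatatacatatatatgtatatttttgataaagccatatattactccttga
IAA6 (chr1:19673653-19673902, minus strand): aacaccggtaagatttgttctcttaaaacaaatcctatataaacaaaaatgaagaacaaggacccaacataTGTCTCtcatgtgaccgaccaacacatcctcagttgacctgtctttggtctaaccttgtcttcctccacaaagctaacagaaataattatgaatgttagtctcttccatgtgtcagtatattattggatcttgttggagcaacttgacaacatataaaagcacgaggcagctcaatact
IAA19 (chr3:5263751-5264000, plus strand): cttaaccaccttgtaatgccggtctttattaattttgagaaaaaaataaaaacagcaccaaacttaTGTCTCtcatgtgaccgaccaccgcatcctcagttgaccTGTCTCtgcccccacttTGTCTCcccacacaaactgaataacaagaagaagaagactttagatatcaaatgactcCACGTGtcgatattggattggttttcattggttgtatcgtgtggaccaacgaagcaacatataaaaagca
The capitals mark TGTCTC in GH3.3 from 116 bases before the start, in GH3.2 from 144, in GH3.5 from 47, in IAA6 from 179 and in IAA19 from 184, 145 and 128. They also mark the G-box CACGTG, a site for PIF and other basic helix-loop-helix or bZIP factors, in GH3.2 from 27 bases and in IAA19 from 70 bases before the start. In IAA29 the capitals mark GNATATNC, the P1BS site of the phosphate starvation regulator PHR1, from 171 bases before the start.

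Over all 35 windows the variant auxin element TGTCGG was in 6, beside 4.16% of all coding genes, the G-box in 5, beside 6.49%, and P1BS in 3, beside 5.46%. TGTCTC was found in genes called in both directions: IAA1, IAA6, IAA8, IAA19, IAA30 and IAA34, which fell, carry it, as do the 3 GH3 genes, which rose. It was absent from the windows of IAA2, IAA3, IAA4, IAA12, IAA16, IAA17, IAA27, IAA29 and GH3.1, which fell. IAA26 and GH3.17, which rose, lacked it too, while IAA5, IAA20 and IAA32, not called, carry it. Whether the motif goes with the change was not tested, and the counts of IAA34 are shared with an overlapping gene. IAA6 and IAA19 share the longest stretch among 595 pairs of windows, of 23 bases, starting 181 and 186 bases before their starts.
Shared by IAA6 and IAA19: taTGTCTCtcatgtgaccgacca
The median pair shared 8 bases, and 3 pairs shared 16 or more. IAA20 and IAA30, of which IAA30 fell and IAA20 was not called, were the next, with 18 bases that also hold TGTCTC.

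Among the GH3 genes outside the set followed here, 6 of 10 tested rose (60%) and none fell, beside 21.4% of all genes tested that rose and 19.4% that fell. PBS3, which makes the isochorismate-glutamate precursor of salicylic acid, averaged 20.9 ± 9.46 CPM in the libraries labelled vih1vih2 and 1.35 ± 0.43 CPM in those labelled wild type, with a log2 fold change of 3.95 ± 0.45. GH3.15, which conjugates the auxin precursor indole-3-butyric acid, averaged 85.8 ± 3.25 CPM in the libraries labelled vih1vih2 and 21.6 ± 1.85 CPM in those labelled wild type (1.99 ± 0.08). GH3.9 and GH3.10 rose by 1.01 ± 0.18 and 0.90 ± 0.20. The count that rose was 3 without library 2 labelled wild type or without library 1 labelled vih1vih2.

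IAA is also released from conjugates and oxidised. Of 11 tested genes of auxin inactivation and conjugate hydrolysis, 5 rose (45.5%) and 2 fell (18.2%), beside 21.4% and 19.4% of all genes tested. Their median log2 fold change was 0.89, and the list includes ILL5, whose value is uncertain for a reason given below. IAR3, an amidohydrolase that acts on IAA-alanine, had 155, 153 and 156 CPM in the libraries labelled vih1vih2 and 46.0, 47.2 and 43.2 CPM in those labelled wild type. ILR1, which acts on IAA-leucine, had 63.1, 72.0 and 78.1 CPM in the libraries labelled vih1vih2 and 16.3, 11.6 and 18.6 CPM in those labelled wild type. The groups did not overlap for either, with log2 fold changes of 1.77 ± 0.06 and 2.20 ± 0.20. The related ILL6, known for cleaving jasmonate conjugates, was higher by 1.99 ± 0.14. DAO1, the dioxygenase that oxidises IAA, had 25.5, 30.3 and 27.2 CPM in the libraries labelled vih1vih2 and 11.7, 11.5 and 13.7 CPM in those labelled wild type, or 1.17 ± 0.11 on the log2 scale.

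ILL5 had 55, 44 and 67 counts in the libraries labelled vih1vih2 and 0 in all 3 labelled wild type, at least 51.1-fold higher when set against 3 counts over the group (counting error only). It is a close copy of IAR3 beside it on chromosome 1, and how reads of similar genes were split is not given, so its value is uncertain. IAMT1, which methylates IAA, and the hydrolase ILL1 fell by 1.04 and 0.52 on the log2 scale. The count that fell was 1 without library 2 or 3 labelled wild type or without library 2 labelled vih1vih2.

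Co-receptors, ARF factors and co-repressors are the partners of the Aux/IAA proteins. Among 6 auxin co-receptors AFB4 rose by 0.74 ± 0.18 and TIR1, at 155 ± 1.4 CPM in the libraries labelled vih1vih2 and 170.2 ± 3.72 CPM in those labelled wild type, fell by 0.14 ± 0.04. These calls make 16.7% of the co-receptors in each direction, beside 21.4% of all genes tested that rose and 19.4% that fell. The TIR1 call was lost when any 1 library was left out, and none of the co-receptors rose without library 1 or 3 labelled wild type or without library 2 or 3 labelled vih1vih2. Of 15 ARF genes tested, 2 rose and 2 fell (13.3% each), beside 21.4% of all genes tested that rose and 19.4% that fell. ARF5 (MONOPTEROS), the activator of vascular and embryonic patterning, averaged 62.3 ± 3.2 CPM in the libraries labelled vih1vih2 and 29.2 ± 2.5 CPM in those labelled wild type (1.09 ± 0.09), and ARF4 rose by 0.79 ± 0.16. ARF3 and ARF11 fell by 1.34 ± 0.24 and 1.10 ± 0.28, and 1 ARF gene fell without library 1 or 2 labelled wild type or without library 1 or 3 labelled vih1vih2. The lateral root activators ARF7 and ARF19 were not called, at 0.82 ± 0.50 and -0.80 ± 0.59, and ARF19 shares its counts with a neighbouring row and is uncertain. The co-repressor TPL was the 1 of 5 TOPLESS genes that rose (20%, beside 21.4% of all genes tested), by 0.62 ± 0.18. That call was lost when any 1 library was left out. Without library 3 labelled vih1vih2, 1 TOPLESS gene fell.

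In auxin synthesis 1 of 10 tested genes rose (10%) and 2 fell (20%), beside 21.4% of all genes tested that rose and 19.4% that fell. The flavin monooxygenase gene YUC3 averaged 0.529 ± 0.13 CPM in the libraries labelled vih1vih2 and 5.0 ± 0.65 CPM in those labelled wild type, a log2 fold change of -3.24 ± 0.23. YUC6 rose by 0.37 ± 0.11 and YUC1 fell by 2.92 ± 0.89 with both groups under 1 CPM, and both calls were lost when any 1 library was left out (YUC1 was singled out after its values were seen). The aminotransferase gene TAA1 and YUC8, a PIF4 target, were not called, at -0.58 ± 0.37 and -0.25 ± 0.12. In auxin transport 8 of 14 tested genes fell (57.1%) and 2 rose (14.3%), beside 19.4% and 21.4% of all genes tested. The median of the transport genes was -0.62 on the log2 scale. The efflux carriers PIN7 and PIN4 fell by 0.98 ± 0.05 and 1.0 ± 0.09, and the influx carriers LAX2 and LAX3 by 1.10 ± 0.12 and 0.96 ± 0.19. ABCB1 and ABCB4 rose by 0.76 and 0.83.

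PIF factors are known to drive IAA29 and IAA19, and whether they have a part in these changes was not tested. Of 10 PIF and shade genes tested, 3 fell (30%) and none rose, beside 19.4% of all genes that fell and 21.4% that rose. PIF4 was at 51.1, 55.8 and 81.5 CPM in the libraries labelled vih1vih2 and 119.7, 122 and 119 CPM in those labelled wild type, with a log2 fold change of -0.94 ± 0.19. The cell wall gene XTR7 and the homeobox gene HAT2 fell by 1.51 ± 0.12 and 1.03 ± 0.10. PIF5, at 82.5, 76.1 and 86.0 CPM in the libraries labelled vih1vih2 and 139, 7.10 and 63.2 CPM in those labelled wild type, was not called, and the libraries labelled wild type spread widely. Without library 2 labelled vih1vih2, 1 gene of this list rose. Of 3 tested LBD genes induced by auxin in roots, LBD16 alone rose (33.3%, beside 21.4% of all genes tested), by 0.91 ± 0.17. In this list 2 rose without library 3 labelled vih1vih2 and 1 fell without library 3 labelled wild type. Over these lists together, 19 of 84 tested genes rose and 18 fell, or 22.6% and 21.4%, near the shares of all genes. That total pools lists that ran in opposite directions. In auxin transport 57.1% fell and 14.3% rose, where 51.9% of the Aux/IAA genes fell. Of the other GH3 genes 60% rose and 0% fell. In auxin inactivation and conjugate hydrolysis, a list that includes the uncertain ILL5, 45.5% rose and 18.2% fell.

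**Figure D5:**
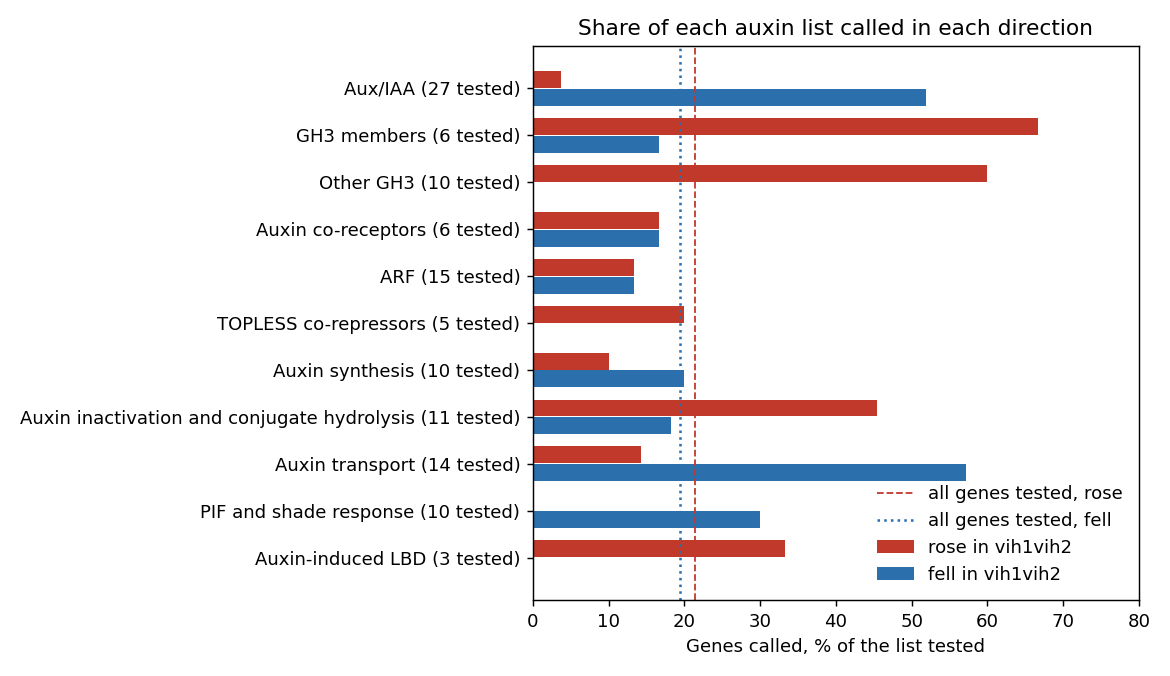
Percent of the tested genes of each auxin list that rose (red bars) or fell (blue bars) in the libraries labelled vih1vih2, with lines for the shares of all genes tested. The blue Aux/IAA bar reaches 51.9% and the red bar of the 6 GH3 genes 66.7%. The blue bar of auxin transport reaches 57.1% and the red bar of the other GH3 genes 60%.

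Markers of organs and of the time of day were read beside these results, and their part in them was not tested. Of 14 root markers, all tested, 6 fell (42.9%) and 1 rose (7.14%), beside 19.4% of all genes tested that fell and 21.4% that rose. Their summed level was 154 to 161 CPM in the libraries labelled vih1vih2 and 174 to 199.6 CPM in those labelled wild type. The endodermal genes CASP5, CASP2 and CASP1 fell by 2.59 ± 0.18, 2.24 ± 0.18 and 1.43 ± 0.07, and PLT1, of the root stem cell niche, by 1.42 ± 0.14. WOX5, of the root stem cell niche, was the 1 root marker that rose, by 0.87 (named after its values were seen), and none rose without library 1 or 3 labelled wild type or without library 2 or 3 labelled vih1vih2, and 2 root markers rose without library 2 labelled wild type. Of 7 tested markers of the shoot apex and stomata, 3 rose (42.9%) and none fell, beside the same shares of all genes. Their sums were 175 to 218 CPM in the libraries labelled vih1vih2 and 129.6 to 189 CPM in those labelled wild type. STM and KNAT1, of the shoot meristem, rose by 0.76 ± 0.14 and 0.51 ± 0.13, and AS1, of leaf primordia, by 0.22 ± 0.06. None of the stomatal genes was called. When any 1 library labelled vih1vih2 was left out, 1 marker of this list rose.

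IAA19, IAA29 and PIF4 are known to cycle over the day. Of 10 clock genes, 4 fell (40%) and 1 rose (10%), beside 19.4% of all genes tested that fell and 21.4% that rose. Clock genes summed to 625 to 657 CPM in the libraries labelled vih1vih2 and 845 to 882 CPM in those labelled wild type. LHY, a morning gene, rose by 2.13 ± 0.23, and PRR7, ELF4 and ELF3 fell by 0.89 ± 0.06, 0.66 ± 0.07 and 0.46 ± 0.07. The labels do not give the hour of harvest.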

How the data were processed

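RNA came from whole seedlings with the RNeasy kit and libraries from the NEBNext Ultra II Directional kit, per the labels' protocols. The deposited values are raw counts per gene identifier. The submitters' processing notes list STAR 2.5.3a, StringTie 1.3.3b and CASAVA 1.4 with the build TAIR10; which tool gave the counts, with which strand setting and annotation, is not given in the sources used here. Of 27080 rows, 280 with a 6-digit identifier repeated the counts of the parent row and were left out, and 26505 of the 26800 kept matched RefSeq TAIR10.1, which gave names, coordinates and sequence.

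The counts were fitted in R 4.3.3 with edgeR 4.0.16 (filterByExpr, TMM, quasi-likelihood, group as the only term, Benjamini-Hochberg adjustment over 22818 genes at 0.05). Standard errors were taken from the F statistic, as |log2 fold change| over its square root. Total counts were 42697387 to 64410871, and 1 count was worth 0.0155 to 0.0234 CPM before scaling. An exact permutation test of 3 against 3 libraries cannot go below 0.1 and was not used. Upstream windows and degron codons were read from RefSeq TAIR10.1. Named genes were all members, VIH1 and VIH2, the 4 called genes of largest change with a mean of at least 1 CPM in each other list, and a few regulators of note; YUC1, ILL5, IAMT1, ILL1, ABCB1, ABCB4 and WOX5 were chosen after their values were seen. Members and lists were chosen with earlier results of these data known. Of 102 other auxin pathway genes, 91 had a row, and the other 11 were not analysed here. Alternatives were DESeq2 1.42.0 size factors and Wald test, limma-voom 3.58.1, no filter, 5 CPM in 3 libraries, a replicate block, removal of plastid, mitochondrial and rRNA genes, and each library left out. Figures used matplotlib 3.10.9 in Python 3.11.15.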

Additional observations from a re-analysis of the deposited data

How the results depend on the processing

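Of the 20 Aux/IAA and GH3 genes called, 17 kept their call in all 13 alternatives tried (12 for IAA6 and IAA30, which a filter of 5 CPM in 3 libraries leaves out), and none changed sign. IAA12, IAA27 and GH3.1 lost theirs in some. The GH3 count that fell, 1 in edgeR, was 0 in limma-voom, 0 with 5 CPM in 3 libraries, where GH3.1 is not tested, and 0 with the replicate block, and it ranged from 0 to 1 when 1 library was left out. With 1 library left out, 12 to 14 Aux/IAA genes fell and 1 rose, 4 to 5 GH3 genes rose, and 4130 to 4377 of all genes rose and 3684 to 3775 fell. VIH1 ranged from 2.20 to 2.47 and VIH2 from 3.54 to 3.72 on the log2 scale. IAA33 was called in the DESeq2 Wald test, at -2.42 (adjusted p of 0.0404). In fits without 1 library the group left with 2 shares the spread of the other.

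Deviations of same-numbered libraries correlated at 0.03, -0.01 and -0.03, so no pairing by replicate number was seen over all genes tested. This cannot exclude a shared batch that moves some genes, and the labels give none. With the replicate block 12 Aux/IAA genes fell and 1 rose, 4 GH3 genes rose, and 3463 of all genes rose and 3020 fell. In the other lists the block left 1 ARF gene that rose and 1 that fell, no TPL or TIR1 call, none that rose and 1 that fell in auxin synthesis, and 1 shoot marker that rose. Without the filter TIR1 and YUC6 were not called and 1 synthesis gene fell, and with DESeq2 size factors TIR1 was not called. With 5 CPM in 3 libraries 1 ARF and no synthesis gene fell and no LBD gene or root marker rose. In the DESeq2 Wald test 1 PIF or shade gene, 2 LBD genes and 5 shoot markers rose. The cause of these differences was not tested. IAA5, IAA20, IAA31, IAA32 and IAA33 averaged under 1 CPM in both groups, so few counts stand behind their values.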
